A study of Mus musculus with 4 samples.

Results

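The chemokines of the mouse liver described here are 10 genes, chosen by name as the rows for Cxcl1, Cxcl9, Cxcl10, Cxcl12, Cxcl13, Ccl2, Ccl5, Ccl6, Ccl9 and Ccl24 among 35275 genes listed in the read count table. Each name matched 1 row, and each gene had reads in every library. The livers came from female mice aged 26 weeks, all congenic for Apoa2c, the allele of apolipoprotein A-II that forms amyloid readily; the labels give the strain as AKR/J, whereas the study's methods describe R1.P1-Apoa2c mice with a SAMR1 background. The 4 groups were vehicle sedentary (VS), vehicle with 16 weeks of interval training (VI), fibril sedentary (FS) and fibril with the same training (FI), where fibril means an injection of AApoAII amyloid fibrils that seeds systemic amyloidosis. Tissue from 4 mice was pooled into 1 library per group, so the spread between mice was not measured, and all livers carried the amyloidogenic allele, so no group stands for a wild-type mouse.

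Chemokines are small secreted proteins that draw leukocytes along a gradient by binding G protein-coupled receptors. Some are kept at a steady level by resident cells, such as Cxcl12, which retains and positions leukocytes and progenitors through Cxcr4; others are induced by inflammatory signals. NF-kappaB drives many inducible chemokines, interferon-gamma drives Cxcl9 and Cxcl10, and in the liver hepatocytes, Kupffer cells (the resident macrophages), endothelial cells and stellate cells can all be sources.

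Library totals lay between 23442935 and 28814802 counted reads, and 3 reads, the limit that a count of 0 allows, corresponded to between 0.102 and 0.127 CPM (reads per 1e+06 reads of the library). Values are given as CPM on library sizes scaled by the trimmed mean of M values (TMM), and as FPKM, the authors' value per length of gene and per library total, wherever genes are compared with each other. Defining hepatocyte genes summed to between 149252 and 170833 CPM, in tissue labelled as liver. The VS library also held skeletal muscle transcripts, whose 7 marker genes summed to 64.5, 7.02, 0.745 and 0.124 CPM (VS, VI, FS, FI); their part in the chemokine values was not tested. In whole liver, fewer cells of a type and less RNA per cell cannot be told apart.

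Several of the genes are neighbours. In mm10, the CXC genes of chromosome 5 were Cxcl1 (ENSMUSG00000029380, positions 90891241 to 90893115, plus strand), Cxcl9 (ENSMUSG00000029417, 92321331 to 92328079, minus strand), Cxcl10 (ENSMUSG00000034855, 92346638 to 92348889, minus strand) and Cxcl13 (ENSMUSG00000023078, 95956928 to 95961067, plus strand), with Cxcl9 and Cxcl10 18.6 kb apart. Ccl24 (ENSMUSG00000004814, 135569937 to 135573043, minus strand) is on the same chromosome, and Cxcl12 (ENSMUSG00000061353, 117168535 to 117181367, plus strand) is on chromosome 6. On chromosome 11 lie Ccl2 (ENSMUSG00000035385, 82035571 to 82037453, plus strand), Ccl5 (ENSMUSG00000035042, 83525778 to 83530518, minus strand), Ccl9 (ENSMUSG00000019122, 83572919 to 83578636, minus strand) and Ccl6 (ENSMUSG00000018927, 83587882 to 83593087, minus strand), the last pair 9.2 kb apart. Art3, on the opposite strand, overlaps Cxcl10, and no source used here states the strand setting of the counting, so reads of the 2 genes may be mixed. Art3 itself had 18, 31, 24 and 11 reads in VS, VI, FS and FI. The opposite-strand genes overlapping Ccl2 and Ccl6 had 0 reads in all 4 libraries.

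The upstream sequences of Cxcl1, Cxcl9 and Cxcl10 are shown because Cxcl1 and the interferon-gamma-responsive pair had different patterns over the 4 libraries. Each is the 250 bases before the start site in RefSeq on GRCm38.p6, written 5′ to 3′ on the strand of the gene. Capitals mark matches to the kappaB consensus, the interferon-stimulated response element and the AP-1 site TGANTCA.
Cxcl1 (chr5:90890995-90891244, plus strand): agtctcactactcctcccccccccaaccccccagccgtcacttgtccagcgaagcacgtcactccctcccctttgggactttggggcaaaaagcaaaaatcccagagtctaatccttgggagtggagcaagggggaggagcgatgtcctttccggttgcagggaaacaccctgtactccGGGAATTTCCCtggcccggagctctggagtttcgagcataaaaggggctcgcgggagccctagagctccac
Cxcl9 (chr5:92328080-92328329, minus strand): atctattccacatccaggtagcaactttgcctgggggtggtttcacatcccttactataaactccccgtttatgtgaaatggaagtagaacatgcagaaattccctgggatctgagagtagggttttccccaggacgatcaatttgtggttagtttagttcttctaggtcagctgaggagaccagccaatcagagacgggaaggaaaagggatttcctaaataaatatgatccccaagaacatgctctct
Cxcl10 (chr5:92348890-92349139, minus strand): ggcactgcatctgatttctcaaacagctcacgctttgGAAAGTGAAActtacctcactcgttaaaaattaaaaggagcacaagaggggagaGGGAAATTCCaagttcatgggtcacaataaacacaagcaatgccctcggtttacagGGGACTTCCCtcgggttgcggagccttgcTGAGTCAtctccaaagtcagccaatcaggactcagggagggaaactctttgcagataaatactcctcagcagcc

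Motifs were searched on both strands in windows from 250 bases before to 50 bases after the start site, counted as +1. Windows were at hand for 7 of the 10 members, Cxcl1, Cxcl9, Cxcl10, Cxcl12, Cxcl13, Ccl6 and Ccl9. The Cxcl1 window held a kappaB match at −71 to −62, with a match on the other strand shifted by a base. The Cxcl10 window held kappaB matches at −159 to −150 and −103 to −94, an interferon-stimulated response element at −213 to −204 and an AP-1 match at −74 to −68, none of them overlapping another motif. Ccl9 held a kappaB match at −35 to −26 and an AP-1 match at −53 to −47. Cxcl9 held an AP-1 match at 32 to 38, downstream of the printed bases, and none of the searched motifs before its start site. Cxcl13 held the C/EBP match TTGCNNAA at −164 to −157. No member window held the gamma-activated sequence TTCNNNGAA. Among all 32851 windows, kappaB was found in 4.51%, the interferon-stimulated response element in 3.44%, the gamma-activated sequence in 8.3%, AP-1 in 7.81% and C/EBP in 10.8%. These matches describe letters and were not tested as sites.

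Per length, Cxcl12 was the most abundant member in every library, and the inducible members were spread over a wide range below it. The 10 genes summed to 114.6, 113.2, 157.5 and 134.6 FPKM (VS, VI, FS, FI), and Cxcl12 took 61.0%, 61.2%, 39.2% and 40.4% of these sums. The members held between 84.5% and 90.8% of the FPKM of 38 chemokine genes examined. Of those 38 genes, 32 had a read in at least 1 library and 14 reached 1 CPM in at least 1.

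**Figure D1:**
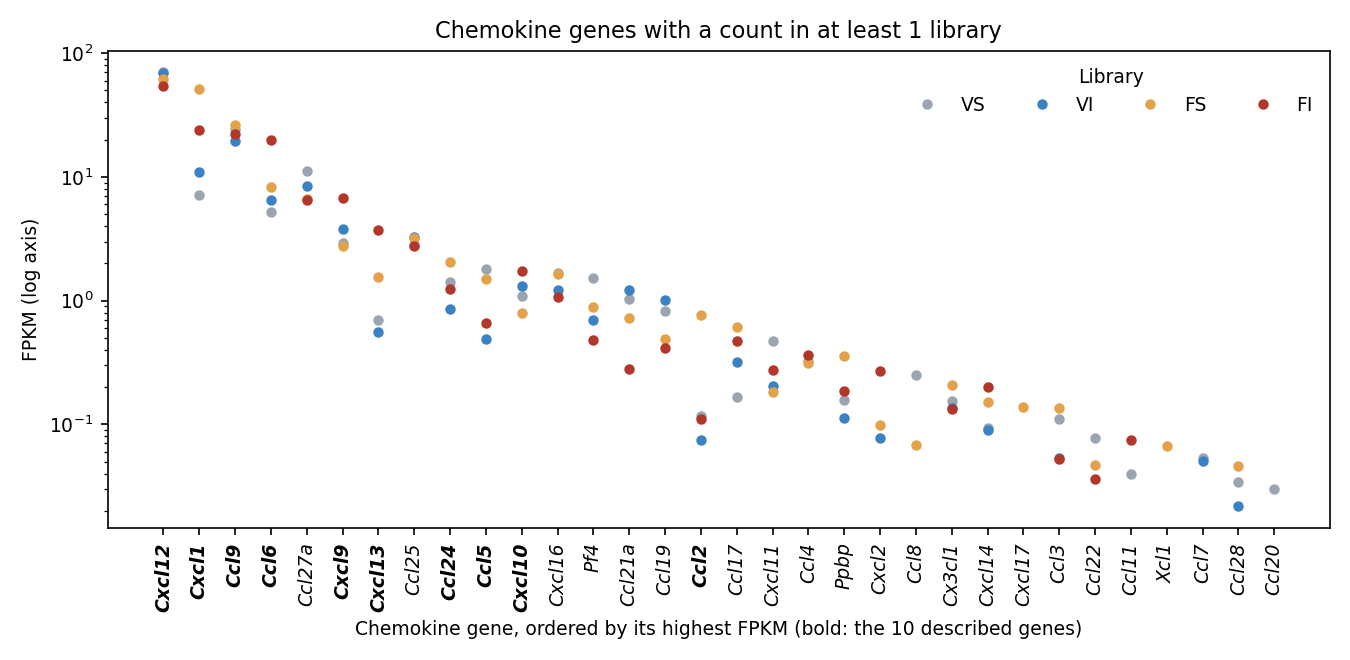
FPKM of each chemokine gene with a read in at least 1 library (vertical log axis), with 1 point per library VS, VI, FS and FI and the genes ordered along the horizontal axis by their highest value. Points at 0 are not drawn. Cxcl12 is at the top with between 54.3 and 69.9 FPKM, and the points of Cxcl1 are spread from 7.21 to 51.6 FPKM.

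Cxcl1, which attracts neutrophils through Cxcr2, had the widest range among members with at least 5 CPM in 1 library. It had 6.82, 10.4, 48.0 and 23.5 CPM (VS, VI, FS, FI), from 161, 254, 1417 and 568 reads. Both fibril libraries were above both vehicle libraries, and every step in this order was beyond counting error. FS exceeded VS 7.02-fold, a log2 ratio of 2.81 with a 95% interval of 2.58 to 3.06, and FI exceeded VI by 1.17 (0.96 to 1.39). With training, Cxcl1 was 0.61 higher on the log2 scale in VI than VS (0.32 to 0.91), whereas FI was 1.03 log2 units lower than FS (a log2 ratio of −1.03, −1.17 to −0.89). All intervals here are exact conditional binomial (Clopper-Pearson) and cover counting error only; with 1 library per group these ratios have no replicate check and no test.

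Cxcl9 and Cxcl10, ligands of Cxcr3 that attract activated T cells and NK cells, followed the same order of libraries, highest in FI and lowest in FS. Cxcl9 had 8.38, 11.0, 7.82 and 20.0 CPM (VS, VI, FS, FI). FI exceeded FS by a log2 ratio of 1.35 (1.12 to 1.58) and VI by 0.86 (0.64 to 1.08), whereas the ratio of FS to VS was −0.10 (−0.38 to 0.18), an interval that includes 0. Cxcl10 had 1.19, 1.44, 0.847 and 1.94 CPM in VS, VI, FS and FI, from only 28, 35, 25 and 47 reads. No neighbours in its order differed beyond counting error, though FI exceeded FS by a log2 ratio of 1.18 (0.47 to 1.96).

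Cxcl13, which attracts B cells through Cxcr5, was low in both vehicle libraries and highest in FI. It had 0.805, 0.657, 1.76 and 4.46 CPM (VS, VI, FS, FI), from 19, 16, 52 and 108 reads. VS and VI did not differ beyond counting error, and both fibril libraries were above them. The log2 ratio was 1.11 (0.35 to 1.97) for FS over VS and 2.73 (2.0 to 3.62), or 6.63-fold, for FI over VI. Within the fibril libraries, training gave 1.33 (0.85 to 1.85).

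Ccl6, a CC chemokine of macrophages and other myeloid cells, was higher with each of the treatments and highest in FI. It had 7.41, 9.40, 11.7 and 29.3 CPM (VS, VI, FS, FI), from 175, 229, 346 and 710 reads. All steps of this order were beyond counting error. FI exceeded VI 3.12-fold (log2 ratio 1.64, 1.43 to 1.86) and FS by 1.32 (1.14 to 1.51), whereas FS exceeded VS by 0.66 (0.39 to 0.93) and VI exceeded VS by 0.34 (0.05 to 0.64). Its neighbour Ccl9, a myeloid-attracting ligand of Ccr1, stayed within a narrow range, with 72.4, 59.2, 77.4 and 68.5 CPM (VS, VI, FS, FI). Both trained libraries of Ccl9 were below their sedentary partners, by log2 ratios of −0.29 (−0.39 to −0.19) for VI and −0.18 (−0.27 to −0.09) for FI, so the neighbouring genes had different orders of libraries.

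Cxcl12 had 390, 392, 339 and 313 CPM (VS, VI, FS, FI). The range was the narrowest of the 10, with the highest value 1.25 times the lowest. VS and VI did not differ beyond counting error (0.01, −0.03 to 0.05), while FS was lower than VS (−0.20, −0.24 to −0.16) and FI lower than VI (−0.32, −0.37 to −0.28). With 7583 reads or more per library, counting error is small for this gene, and the spread between mice, which was not measured, is not in the intervals.

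Ccl5, which attracts T cells, was lower in both trained libraries. It had 1.19, 0.328, 0.982 and 0.455 CPM (VS, VI, FS, FI), from 28, 8, 29 and 11 reads. The log2 ratio was −1.79 (−3.20 to −0.68) for VI over VS and −1.08 (−2.26 to −0.07) for FI over FS. Ccl5 reached 1 CPM in VS alone and passed the filter on low values through that library.

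Ccl2, which attracts monocytes through Ccr2, had 3, 2, 24 and 3 reads in VS, VI, FS and FI and stayed under 1 CPM in all of them. The FS library stood apart with 0.813 CPM, a log2 ratio of 2.5 over VS (0.96 to 5.05) and of −2.53 for FI over FS (−5.09 to −0.99). Ccl24, an eosinophil-attracting ligand of Ccr3, had 1.82, 1.11, 2.57 and 1.65 CPM (VS, VI, FS, FI), from 43, 27, 76 and 40 reads. Both trained libraries had the lower values, but of its training ratios, the interval excluded 0 for FI over FS (−0.63, −1.23 to −0.07) and not for VI over VS (−0.71, −1.47 to 0.01), and no neighbours in its order differed beyond counting error.

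**Figure D2:**
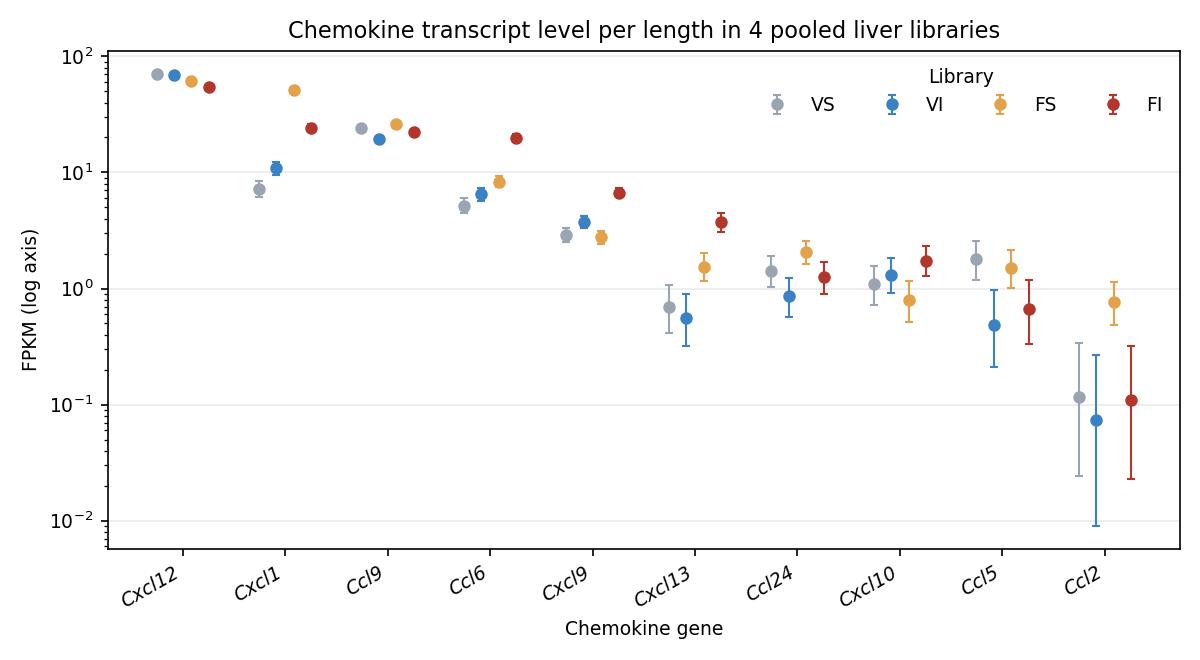
FPKM of each of the 10 chemokine genes (vertical log axis) in the VS, VI, FS and FI libraries, with exact Poisson 95% intervals that cover counting error only. Cxcl1 is highest in FS with 51.6 FPKM, while Cxcl9, Cxcl10, Cxcl13 and Ccl6 are highest in FI.

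Counted over members with at least 1 CPM in 1 library, more chemokines were over 2-fold higher than over 2-fold lower in the fibril libraries. For FS over VS, 2 of 9 tested members, Cxcl1 and Cxcl13, were over 2-fold higher and 0 over 2-fold lower, where 3.6% of 12180 genes were higher and 2.18% lower. Cxcl13 reached 1 CPM only in FS and FI, so in the fibril contrasts it could count as little else than higher, and without it 1 of 8 was higher for FS over VS. For FI over VI, 3 members (Cxcl1, Cxcl13 and Ccl6) were higher and 0 lower, against 2.59% and 1.95% of all genes. Cxcl1 and Cxcl13 were higher in both fibril contrasts, as were 133 genes (1.09%). The members' median log2 ratio was 0.10 for FS over VS and 0.57 for FI over VI, where the medians of all genes tested were 0.02 and 0.01. Over all 10 members, Ccl2 included, these medians were 0.30 and 0.53.

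With training, more members passed 2-fold in the fibril pair than in the vehicle pair, a difference that was not tested. For VI over VS, 0 of 9 were higher and 1, Ccl5, was lower, against 1.54% and 1.9% of all genes. For FI over FS, 4 were higher (Cxcl9, Cxcl10, Cxcl13 and Ccl6) and 2 lower (Cxcl1 and Ccl5), against 1.72% and 2.54% of all genes. Ccl5 was lower in both training contrasts, as were 72 genes (0.591%), but since it passed the filter only through VS, where it was highest, nothing is read from its count. The members' medians were 0.01 for VI over VS and −0.11 for FI over FS, beside 0.0038 and 0.00044 for all genes. Over all 10 members they were −0.14 and −0.15, so the sign for VI over VS turned with Ccl2. The FS versus VS and VI versus VS contrasts share the VS library, and FI versus VI and FI versus FS share FI. Likewise, FS versus VS and FI versus FS share FS, and VI versus VS and FI versus VI share VI. The FS values of Cxcl1 and Ccl2, their highest, thus enter both FS over VS and FI over FS.

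**Figure D3:**
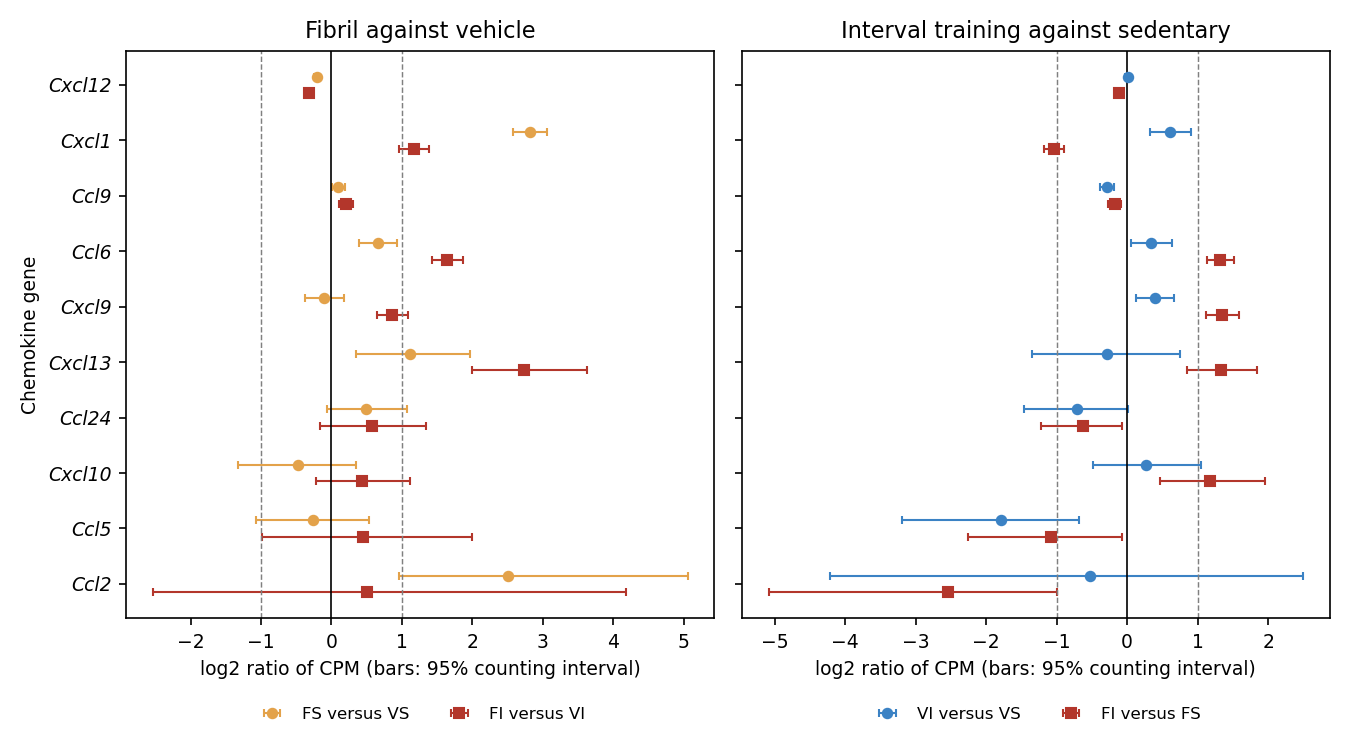
Log2 ratio of CPM for each chemokine gene, fibril over vehicle on the left (FS over VS, FI over VI) and training over sedentary on the right (VI over VS, FI over FS), with 95% counting intervals as bars and dashed lines at 2-fold. Cxcl1 is at 0.61 for VI over VS and −1.03 for FI over FS, and Cxcl13 is at 2.73 for FI over VI.

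The size of the training ratio differed between fibril and vehicle pairs beyond counting error for Cxcl1, Cxcl9, Cxcl12, Cxcl13 and Ccl6. The share of all genes that differed so was not computed, so nothing is read from the number of members. Genes with many reads, such as Cxcl12, pass this limit at small differences. The difference, fibril minus vehicle on the log2 scale, was −1.64 for Cxcl1 (−1.96 to −1.32), 0.96 for Cxcl9 (0.61 to 1.31), 1.62 for Cxcl13 (0.56 to 2.68), 0.98 for Ccl6 (0.64 to 1.32) and −0.12 for Cxcl12 (−0.18 to −0.06). These intervals are normal approximations from the read counts and cover counting error only. If the single changes in CPM of training and fibril added, FI would hold 51.6 CPM of Cxcl1, where 23.5 was measured. The same sum gave 10.4 CPM of Cxcl9 against 20.0 measured, 1.61 of Cxcl13 against 4.46, and 13.7 of Ccl6 against 29.3. Cxcl1 was thus below this sum in FI and the other 3 above it. The intervals of Cxcl10 (0.91, −0.08 to 1.91), Ccl2 (−1.99, −4.83 to 0.86), Ccl5 (0.72, −0.76 to 2.20), Ccl9 (0.11, −0.02 to 0.25) and Ccl24 (0.08, −0.80 to 0.96) included 0.

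An additive model of fibril and training, fitted with edgeR's quasi-likelihood test over 11760 genes with 1 residual degree of freedom, held 8 of the members; Ccl2 and Ccl5 did not reach its filter. For fibril, Cxcl13 (log2 difference 1.98, SE 0.43) and Ccl6 (1.17, SE 0.24) were called higher, with Benjamini-Hochberg adjusted p of 0.040 and 0.041 by edgeR. Cxcl13 entered the fit only through FS and FI, the libraries where it was high, so its call carries no weight of its own. Both calls were lost in a fit of fibril alone, with adjusted p of 0.17 for Cxcl13 and 0.35 for Ccl6 by edgeR. At a filter of 5 CPM in 2 libraries, Cxcl13 was not fitted and Ccl6 had an adjusted p of 0.053 by edgeR. Of all genes, 2.81% were called higher and 2.17% lower. Cxcl1 had a fibril difference of 1.98 (SE 0.44) and an adjusted p of 0.10 by edgeR's test with Benjamini-Hochberg adjustment, and it was called by limma-voom (adjusted p = 0.0068) and not by DESeq2 (adjusted p = 0.14), within a range of 0.0068 to 0.38 over the alternatives. The additive model assumes the same training effect with and without fibril, and the measured training ratios of Cxcl1, Cxcl9, Cxcl12, Cxcl13 and Ccl6 differed beyond counting error, as given before. At an unadjusted p under 0.05 by edgeR stood 21.4% of all genes for fibril and 14.7% for training. For training, 0 of 8 members were called by edgeR, with 2 at an unadjusted p under 0.05, Cxcl9 (0.89, SE 0.24, adjusted p = 0.15) and Ccl6 (0.88, SE 0.24, adjusted p = 0.16). DESeq2 and limma-voom also called 0 members for training. Of all genes, 0.765% were called higher and 0.714% lower with training. Since each group is 1 pool, these p-values set each difference against departures from additivity among 4 libraries and not against the spread between mice.

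Receptors were at low levels. Cxcr2, the receptor of Cxcl1, had 5, 0, 13 and 6 reads in VS, VI, FS and FI, and Cxcr3, the receptor of Cxcl9 and Cxcl10, had 4, 3, 2 and 2. Cxcr5, the receptor of Cxcl13, had 35, 31, 31 and 19 reads, and Ccr2, the receptor of Ccl2, had 9, 12, 25 and 12. The highest Ccr2 count was thus in FS, as for Ccl2. Cxcr4, the receptor of Cxcl12, had 6, 19, 37 and 23 reads. Its log2 ratio was 1.55 (0.24 to 3.23) for VI over VS and 2.22 (1.05 to 3.84) for FS over VS. The decoy receptor Ackr3 had 7, 2, 7 and 8 reads. Ccr1, a receptor of Ccl9, had 0, 1, 6 and 7 reads, and Ccr3, the receptor of Ccl24, had 13, 11, 13 and 4. Of 22 receptor genes 6 were tested for ratios, with 1 higher and 0 lower for VI over VS, 1 and 0 for FS over VS, and 0 and 1 for FI over VI; 0 of the 5 fitted were called by edgeR, with 2 of 5 at an unadjusted p under 0.05 for fibril and 1 of 5 for training, where 21.4% and 14.7% of all genes were. Of all genes, 1.54% were higher for VI over VS, 3.6% higher for FS over VS and 1.95% lower for FI over VI. The genes past 2-fold in these contrasts were Cxcr4 and, for FI over VI, Ackr1, the last chosen after its values were seen. Cxcr4 reached 1 CPM in FS alone, where it was highest, so nothing is read from its count for FS over VS.

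Of 28 other chemokine genes, 5 were tested and 1 was over 2-fold lower in each of the 4 contrasts, with 0 higher. Of all genes, 1.9% were lower for VI over VS, 2.54% for FI over FS, 2.18% for FS over VS and 1.95% for FI over VI. Among the 4 fitted, 0 were called by edgeR, with 1 at an unadjusted p under 0.05 for fibril and 0 for training. Ccl27a, a skin-associated ligand, was the most abundant per length, with 11.1, 8.39, 6.62 and 6.52 FPKM (VS, VI, FS, FI). Cxcl11 was the lower gene for VI over VS and FS over VS, and Ccl21a for FI over FS and FI over VI. Ccl21a reached 1 CPM in VI alone, where it was highest, so nothing is read from its count for FI over VI. Its log2 ratio for FI over FS was −1.23 (−2.92 to 0.10), an interval that includes 0, from 18 reads in FS and 6 in FI. These genes were chosen after their values were seen.

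Among the pathways that induce chemokines, few genes passed 2-fold or an adjusted p of 0.05 by edgeR. Of 21 cytokine and cytokine receptor genes, 13 were tested. For VI over VS, FS over VS and FI over VI, 1 was over 2-fold higher and 0 lower. Of all genes, 1.54%, 3.6% and 2.59% were higher. For FI over FS, 1 was lower and 0 higher, where 2.54% of all genes were lower. At an unadjusted p under 0.05 by edgeR stood 6 of 12 fitted for fibril and 3 of 12 for training. Of all genes, 21.4% and 14.7% did. With Benjamini-Hochberg adjustment, edgeR's test called 2 of 12 fitted higher with fibril and 1 with training, beside 2.81% and 0.765% of all genes. The genes called were all receptors. These were Il1r1, the receptor of interleukin-1 (fibril 1.17, adjusted p = 0.0068; training 0.86, adjusted p = 0.036 by edgeR), and Tnfrsf1b, a receptor of tumour necrosis factor (fibril 0.83, adjusted p = 0.036 by edgeR). Both were chosen after their values were seen. Il1r1 had 43.0, 95.1, 118 and 177 CPM (VS, VI, FS, FI), an order VS, VI, FS, FI that it shares with Ccl6. The genes of Il1r1's ligands, Il1a, with 62, 59, 95 and 66 reads, and Il1b, with 45, 52, 74 and 73, were not called. Ifng had 0, 0, 2 and 0 reads and Tnf 6, 3, 8 and 4, close to the counting limit. These ligand genes were chosen after their values were seen. All 18 NF-kappaB pathway genes were tested. Rel alone was over 2-fold higher for FS over VS and Tnfaip3 alone for FI over VI, where 3.6% and 2.59% of all genes were. Rel reached 1 CPM only in FS and FI, so for FS over VS it could count as little else than higher. By edgeR 0 were called. At an unadjusted p under 0.05 by edgeR stood 4 of 18 for fibril and 2 of 18 for training, beside 21.4% and 14.7% of all genes. Of 16 genes of the interferon-gamma axis 14 were tested. Only Gbp4 passed 2-fold, 1.02 higher on the log2 scale in FI than FS, the contrast in which Cxcl9 was higher too. Of all genes, 1.72% were over 2-fold higher for FI over FS. By edgeR 0 were called, with 2 of 14 at an unadjusted p under 0.05 for fibril and 4 of 14 for training. Of the latter, Irf1 (−0.44), Iigp1 (−0.38) and Psmb9 (−0.72) had negative training differences and Igtp (0.34) a positive one, and the median log2 ratio of the list for FI over FS was −0.0083. Irf1, Iigp1, Psmb9, Igtp, Rel, Tnfaip3 and Gbp4 were also chosen after their values were seen.

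Marker genes of leukocytes moved beside some members. Neutrophil markers (11 genes, 3 at 1 CPM or above in a library) summed to 3.77, 3.94, 9.01 and 5.21 CPM (VS, VI, FS, FI), the order of Cxcl1. Those 3 were over 2-fold higher in FS than VS, where 3.6% of all genes were. Among them S100a8, chosen after its values were seen, reached 1 CPM only in FS and FI. For FS over VS it could thus count as little else than higher. The defining marker Mpo had 0 reads except for 1 in FS. Kupffer cell markers (11 genes, all tested) summed to 314, 382, 492 and 501 CPM, the order of Ccl6 and also of the hepatocyte sums. The hepatocyte sums were 149252, 155094, 164824 and 170833 CPM. Of the Kupffer cell markers, 4 of 11 were called higher with fibril by edgeR, beside 2.81% of all genes. Monocyte markers (7 genes) summed to 6.86, 5.75, 9.48 and 7.77 CPM. B cell markers (6 genes) summed to 5.59, 2.55, 4.57 and 2.60 CPM, lower in both trained libraries as was Ccl5, and highest in VS and not in FI, where Cxcl13 was highest. Markers of T and NK cells (13 genes) stayed between 2.22 and 3.32 CPM in sum, with 0 of 13 at 1 CPM, and eosinophil and mast cell markers (6 genes) stayed between 0.0413 and 0.203 CPM. The part of these cells in the chemokine values was not tested.

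Sums of the other marker lists moved less or in other orders. Endothelial markers summed to between 166 and 198 CPM and stellate cell markers to between 209 and 246. Cholangiocyte markers summed to between 12.6 and 20.2 CPM and were lowest in FI, pancreas markers to between 12.2 and 22.8 and adipose markers to between 4.91 and 7.65. None of these sums had the order of Cxcl1 or of Ccl6. Single genes could differ from their sums. With fibril, edgeR called higher 1 of 7 fitted endothelial, 1 of 2 cholangiocyte and 0 of 7 stellate cell markers, beside 2.81% of all genes. The genes called were Lyve1 (2.16, adjusted p = 0.015 by edgeR) and Sox9 (1.12, adjusted p = 0.049 by edgeR). Lyve1 had 0.678, 1.03, 1.83 and 6.57 CPM (VS, VI, FS, FI), the order of Ccl6. Both were chosen after their values were seen. Plasma cell markers (5 genes) summed to between 262 and 321 CPM, most of it Sdc1, which hepatocytes also express. Of 4 fitted, 1 was called higher with fibril, beside 2.81% of all genes. It was Igkc (0.82, adjusted p = 0.022 by edgeR), with 10.4, 7.14, 17.5 and 13.3 CPM (VS, VI, FS, FI). The immunoglobulin gene Ighm had 8.64, 5.75, 8.30 and 6.57 CPM and was not called (0.055, adjusted p = 0.89 by edgeR). Jchain had 3.13, 3.78, 6.61 and 4.88 CPM, the order of Cxcl1. Of 4 tested, it was the 1 over 2-fold higher in FS than VS, beside 3.6% of all genes. Mzb1 had 10, 7, 10 and 14 reads. Igkc, Ighm, Jchain, Mzb1 and Sdc1 were named after their values were seen. The part of plasma cells in the chemokine values was not tested.

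**Figure D4:**
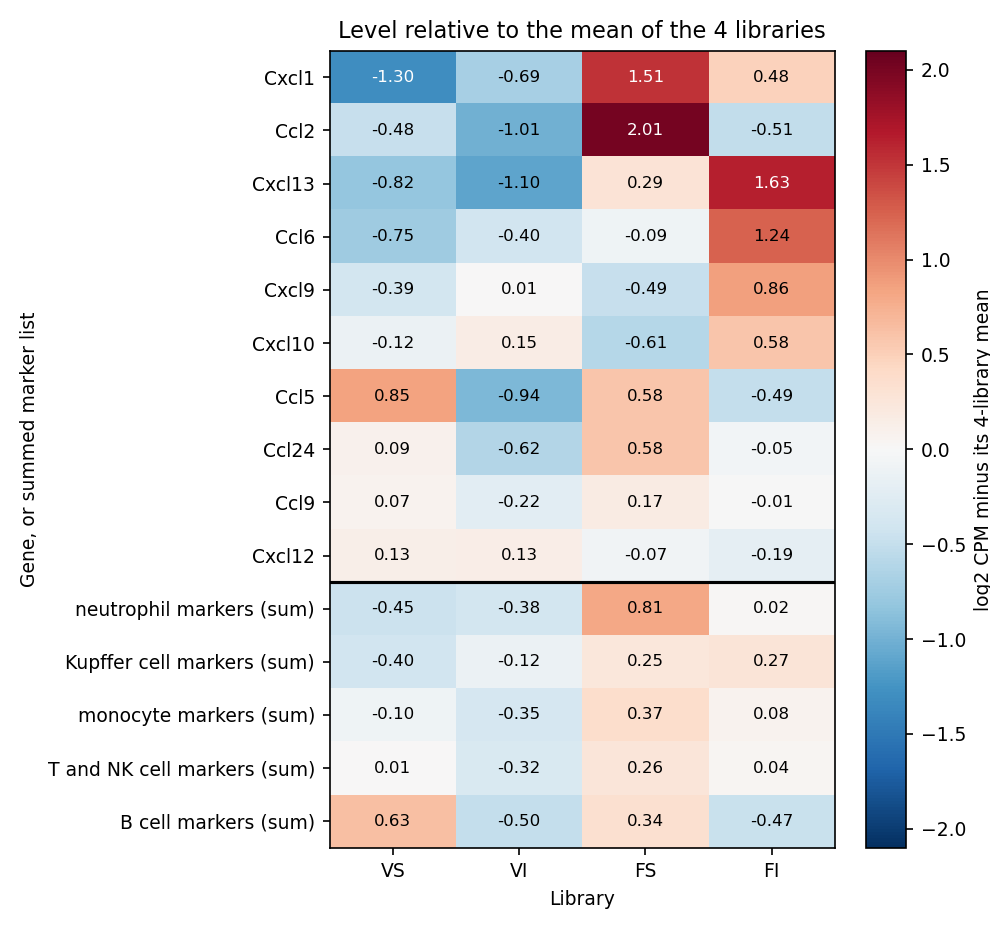
Heat map of log2 CPM minus its mean over the 4 libraries, with libraries as columns, the 10 chemokine genes as the upper rows and the summed leukocyte marker lists below the line (red above the mean, blue below it). Cxcl1 is at 1.51 and the neutrophil sum at 0.81 in FS, and Ccl6 is at 1.24 and the Kupffer cell sum at 0.27 in FI.

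The 3 genes whose pattern over the 4 libraries was most like that of Cxcl1, by root mean square difference of centred log2 CPM among 9348 genes compared, were Btg2 (0.20), Manf (0.23) and Alpk1 (0.24). Btg2, an antiproliferative early response gene, had 9.19, 13.5, 47.8 and 33.6 CPM (VS, VI, FS, FI). Manf, a secreted protein of the endoplasmic reticulum stress response, had 43.0, 54.0, 193 and 110.0 CPM, and Alpk1, a kinase that senses bacterial sugars, had 0.847, 1.48, 5.39 and 4.09. All were highest in FS and next highest in FI, and with 4 libraries such likeness is a description.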

How the data were processed

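Liver homogenates of 4 mice per group were pooled by the authors before RNA was extracted, giving 1 library for each of VS, VI, FS and FI. The deposited read counts per gene were made by the authors with, per the submitters' processing notes, fastp 0.23.2, STAR 2.5, HTSeq 0.6.1 and build mm10. The authors also deposited FPKM: all 69722 values above 0 lay within 0.1% of count divided by gene length and library total. The authors tested counts with edgeR, and no source used here states the dispersion.

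The software was edgeR 4.0.16, DESeq2 1.42.0 and limma 3.58.1 under R 4.3.3, and figures drawn with Python 3.11.15 and matplotlib 3.10.9. Libraries were scaled by TMM. Genes with at least 1 CPM in 1 library (12180) were compared by log2 ratios with a prior of 0.5 counts and exact conditional binomial 95% intervals; an absolute log2 ratio above 1 was counted. An additive model was fitted to 11760 genes with at least 1 CPM in 2 libraries by edgeR's robust quasi-likelihood test, with Benjamini-Hochberg adjustment at 0.05, and was tested on simulated data. Alternatives were other scalings, FPKM with pseudocounts of 1 and 0.1, a prior of 2, other filters and fold thresholds, DESeq2 and limma-voom. Promoters were read from RefSeq (GRCm38.p6). Of the members, 7 have the same start and end in GENCODE M21.

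The 10 members were named in full. From the pathway lists, genes were to be named that passed 2-fold with the same sign in both fibril or both training contrasts, which named none, together with the members' own receptors, of which 1 is not reported here; the 3 genes most like the widest-ranging member were named as well. The members and lists were chosen with earlier results of these data known. Protein sequences were not analysed here.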

Additional observations from a re-analysis of the deposited data

Results flagged for a closer look

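Cxcl1 moved in opposite directions with training: the log2 ratio was 0.61 for VI over VS and −1.03 for FI over FS, and both counting intervals excluded 0. With 1 pooled library per group, the difference between these ratios was not tested against the spread between mice.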

How the results depend on the processing

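Counts of members past the fold threshold moved with the filter and the threshold. With at least 5 CPM in 1 library, 0 members passed 2-fold for VI over VS (1 in the report), 3 for FI over FS (6 in the report) and 1 for FS over VS (2 in the report), since fewer members were tested; at 1.5-fold, 3 passed for VI over VS. The fibril calls of Cxcl13 and Ccl6 were lost, leaving 0 members called, with a filter of 5 CPM in 2 libraries, which Cxcl13 does not reach and under which Ccl6 had an adjusted p of 0.053 by edgeR, and in a fit of the factor alone; for the latter the cause was not tested. Without a filter on low counts, 2 members, Cxcl9 and Ccl6, were called for training where the report has 0; the cause was not tested. Of 200 alternative log2 ratios of single members, 193 moved by less than their counting interval and 7 by more, and 0 called values turned direction.

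No leave-one-out fit was possible, because each group is 1 library and 3 libraries leave no residual degrees of freedom. No paired analysis was possible because the labels give 1 library per group. Pooling, 1 residual degree of freedom and low reads for Ccl2, Ccl5, Cxcl10 and Cxcl13 limit these values, and intervals cover counting error only.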
